A study of Homo sapiens with 6 samples.

Results

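NEAT1, MALAT1 and 7 other long noncoding RNA (lncRNA) genes that are often studied in cancer (TUG1, PVT1, H19, DANCR, CRNDE, MEG3 and KCNQ1OT1) were followed in BT-549 cells in which NEAT1 was silenced. The genes were chosen by symbol, which gave 9 of the 25545 genes with expression values. RefSeq types 4168 of those genes as lncRNA. Of the 9 members, 8 carry that type, and TUG1 is typed protein-coding in both RefSeq and GENCODE v44, although it is usually described as a lncRNA.

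NEAT1 is the RNA scaffold of paraspeckles, nuclear bodies that assemble around its long transcript and that hold RNA-binding proteins of the DBHS family, such as SFPQ, NONO and PSPC1. The gene gives a short polyadenylated transcript, NEAT1_1, and a long transcript, NEAT1_2, which starts at the same promoter and whose 3′ end is cut by RNase P rather than by the poly(A) machinery. MALAT1, its neighbour on chromosome 11, gives an abundant RNA of nuclear speckles, the bodies that store splicing factors, and its 3′ end is made by the same RNase P cut. In both RNAs a U-rich and A-rich triple helix at the 3′ end takes the place of a poly(A) tail.

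BT-549 is an established human triple-negative breast cancer (TNBC) line with mesenchymal features. The cells were transfected with a control siRNA (CsiRNA) or with a siRNA against NEAT1 (NEAT1siRNA), and RNA was taken after 48 h. There were 3 libraries in each group, from triplicate cultures of 1 line, so the p-values refer to cultures of that line. The limma p-values used below do not rest on the spread of a gene's own cultures alone. The sample titles carry the prefix tet-, but no inducible construct or doxycycline is described for these samples, and 1 siRNA against NEAT1 was used.

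The libraries were made with a stranded mRNA kit, which selects RNA with poly(A) tails. Levels are given as TPM (reads per transcript length, scaled to the same sum in each library). The 6 libraries held 15787040 to 20343890 reads in genes, as reconstructed from the deposited TPM and mean normalized counts. The short RNAs RN7SK, RN7SL1, RN7SL2 and RPPH1 took 64.4% to 68.1% of the TPM of a library but 2.30% to 3.01% of its reads, and the TPM of the remaining genes share what is left. All 6 mesenchymal markers examined, among them VIM, SPARC and ZEB1, had a mean of at least 1 TPM, and their summed level was 1518 to 1713 TPM with CsiRNA and 1394 to 1620 TPM with NEAT1siRNA. Of the 6, 2 were lower with NEAT1siRNA, FN1 (fibronectin, difference -0.47, adjusted p 0.00116 by limma on log2(TPM + 1)) and CDH2 (N-cadherin, -0.34, adjusted p 0.0186), and 4 were not called. The CDH2 call was lost without CsiRNA replicate 1, CsiRNA replicate 2 or NEAT1siRNA replicate 3 (adjusted p 0.0539 to 0.143). Of 9 hormone receptor and luminal epithelial markers only KRT18 reached 1 TPM, and ESR1 was listed at 0 in all libraries. None of 6 blood and endothelial markers reached 1 TPM.

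The 3′ ends are shown because the mRNA kit captures poly(A) and the long NEAT1 transcript and MALAT1 have no poly(A) tail. The last 120 bases of NEAT1_2 (GRCh38, chr11:65445421-65445540, plus strand) and the last 120 bases of MALAT1 before the tRNA-like RNA mascRNA (chr11:65505997-65506116, plus strand) were read from the genome, with the ends placed by RefSeq. Capitals mark the 3 stretches of 8 or more bases found in the same order in both.
NEAT1_2 3′ end: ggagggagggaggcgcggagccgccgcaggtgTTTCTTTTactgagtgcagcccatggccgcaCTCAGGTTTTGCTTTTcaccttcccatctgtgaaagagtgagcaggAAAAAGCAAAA
MALAT1 3′ end: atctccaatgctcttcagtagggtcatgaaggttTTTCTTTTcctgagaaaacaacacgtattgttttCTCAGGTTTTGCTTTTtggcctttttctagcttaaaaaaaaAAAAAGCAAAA

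The U-rich stretches of the triple helix overlap the first and the second of these words, and the A-rich stretch overlaps the word that ends both RNAs. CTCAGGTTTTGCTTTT was found in the longest transcript of 2 of 10106 genes, sense strand, and those were NEAT1 and MALAT1. AAAAAGCAAAA was found in 188 of the 10106 (1.86%), and also in KCNQ1OT1, which is not among the 10106 because its level is too low for the test. TTTCTTTT was common, in 38.9% of the genes. These are matches of letters in annotated transcripts, and no structure was measured.

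The short transcript NEAT1_1 ends in the other way. Its last 60 bases at the furthest short GENCODE v44 end (GRCh38, chr11:65426454-65426513, plus strand) hold the poly(A) signal AATAAA, in capitals.
NEAT1_1 3′ end: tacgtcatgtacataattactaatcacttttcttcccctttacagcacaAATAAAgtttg

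AATAAA was present in the last 60 bases of the longest transcript of 60.8% of the 10106 genes, and among the members it was present there in TUG1 and H19. Runs of A inside a transcript can also bind oligo(dT). The longest run was 29 bases in KCNQ1OT1, 22 in NEAT1_2, 18 in TUG1 and 13 in MALAT1, whose run is the one seen in the window above. A run of at least 22 was present in 2.99% of the 10106 genes and a run of at least 13 in 16.7%. DANCR, CRNDE, PVT1 and H19 had longest runs of 8, 10, 6 and 4 bases.

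NEAT1 (ENSG00000245532; GRCh38, chromosome 11, 65422774 to 65445540, plus strand) was the target of the siRNA, and its level checks the labels. NEAT1 was present at 13.4, 7.68 and 10.8 TPM in CsiRNA replicates 1, 2 and 3. In NEAT1siRNA replicates 1, 2 and 3 it was present at 4.36, 2.96 and 2.73 TPM. All 3 NEAT1siRNA libraries were below all 3 CsiRNA libraries. The mean fell from 10.6 ± 2.86 to 3.35 ± 0.885 TPM (SD, n = 3), so that 31.5% of the control level remained. In RNA from bulk cultures a fall in every cell and a loss of part of the cells that express the gene cannot be told apart. On the log2(TPM + 1) scale the difference was -1.41 ± 0.14 (SE), with an adjusted p of 1.21e-07 by limma. This was the third largest fall among the 10721 genes with a mean of at least 1 TPM.

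These values came from 3766 to 6482 NEAT1 reads per CsiRNA library and from 1330 to 2273 per NEAT1siRNA library, so counting error was small against the spread between cultures. The short and the long transcript overlap over the whole length of the short one, and the gene-level values do not separate them. The reads and the TPM imply that NEAT1 reads were divided by 2.65 times the length used for MALAT1. The RefSeq lengths of NEAT1_2 (22743 bases) and MALAT1 (8779 bases) stand at 2.59, whereas the short transcript NEAT1_1 (3684 bases in GENCODE) would give 0.420. The NEAT1 level in TPM is therefore a level per length of the long transcript. Counted as reads, NEAT1 (3766 to 6482) and TUG1 (5636 to 6714) were at similar depth in the CsiRNA libraries.

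MALAT1 (ENSG00000251562; chromosome 11, 65497640 to 65508073, plus strand) starts 52197 bases beyond the end of NEAT1 in RefSeq. Its level was 575, 320 and 507 TPM in CsiRNA replicates 1, 2 and 3. It was 387, 311 and 228 TPM in the NEAT1siRNA replicates. The groups overlapped, since NEAT1siRNA replicate 1 was above CsiRNA replicate 2. The mean was 467 ± 132 TPM with CsiRNA and 309 ± 79.3 TPM with NEAT1siRNA (SD, n = 3), which is 66.0% of the control level. The log2(TPM + 1) difference was -0.59 ± 0.16 (SE), with an adjusted p of 0.0123 by limma. An exact two-sided permutation test of the 6 values gave p = 0.2, where 0.1 is the smallest p that 3 libraries against 3 can give.

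The MALAT1 call depended on the libraries and on the scaling. Without CsiRNA replicate 1 the difference was -0.42 and the adjusted p 0.162, and without NEAT1siRNA replicate 3 it was -0.39 and 0.142 (limma). With median centring, quantile normalization or rescaling of TPM without the 4 short RNAs the adjusted p was 0.0832, 0.102 and 0.0796. The direction was lower in all 18 alternatives, between -0.84 and -0.39. Whether the antisense partner TALAM1 entered these values cannot be told apart, because the strand setting of the counting is not given in the sources used here.

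**Figure D1:**
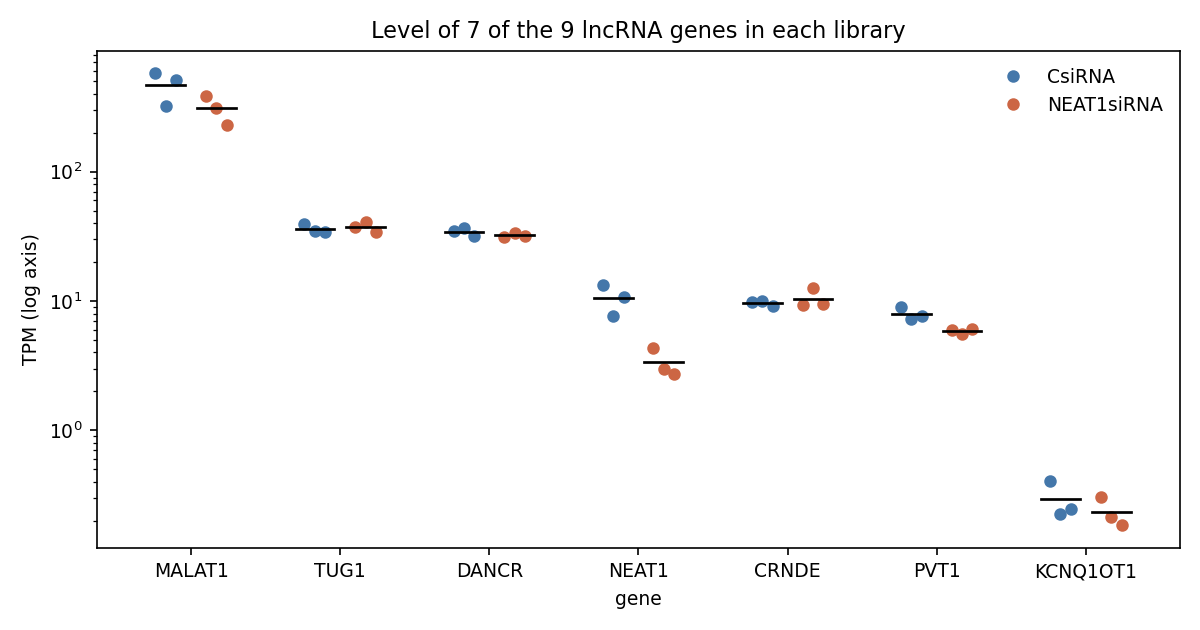
TPM on a log axis for 7 of the 9 genes, in 3 CsiRNA libraries (blue) and 3 NEAT1siRNA libraries (orange); each point is 1 library and each bar a group mean. NEAT1 and PVT1 separate by group, MALAT1 overlaps, and H19 and MEG3 are left out because they have values of 0.

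PVT1, a lncRNA gene next to the MYC oncogene on chromosome 8, was also lower. It was present at 8.95, 7.23 and 7.60 TPM in the CsiRNA replicates and at 5.97, 5.60 and 6.13 TPM in the NEAT1siRNA replicates. The groups did not overlap. The mean was 7.92 ± 0.907 TPM with CsiRNA and 5.90 ± 0.269 TPM with NEAT1siRNA (SD, n = 3), or 74.5% of the control level. The log2(TPM + 1) difference was -0.37 ± 0.10 (SE), with an adjusted p of 0.0119 by limma. The PVT1 values rest on 220 to 334 reads per library. Without CsiRNA replicate 1 the adjusted p rose to 0.0984 and the difference was -0.29.

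TUG1, DANCR and CRNDE did not pass the test. TUG1, which is known from retina and from cancer, was present at 39.2, 35.0 and 34.2 TPM with CsiRNA and at 37.2, 40.8 and 34.0 TPM with NEAT1siRNA. Its difference was 0.04 (95% interval -0.14 to 0.23), with an adjusted p of 0.815 by limma. DANCR, a snoRNA host gene first described as a brake on differentiation, was present at 34.9, 36.7 and 31.7 TPM with CsiRNA and at 31.3, 33.6 and 31.8 TPM with NEAT1siRNA. Its difference was -0.09 (95% interval -0.27 to 0.09), with an adjusted p of 0.570 by limma. CRNDE, named for its expression in colorectal neoplasia, was present at 9.81, 9.96 and 9.14 TPM with CsiRNA and at 9.26, 12.5 and 9.54 TPM with NEAT1siRNA. Its difference was 0.09 (95% interval -0.11 to 0.30), with an adjusted p of 0.609 by limma. In all 3 genes the groups overlapped, and the high CRNDE value was that of NEAT1siRNA replicate 2. The intervals leave room for changes in either direction. Without NEAT1siRNA replicate 2 the differences of TUG1 and CRNDE were -0.021 and -0.031.

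**Figure D2:**
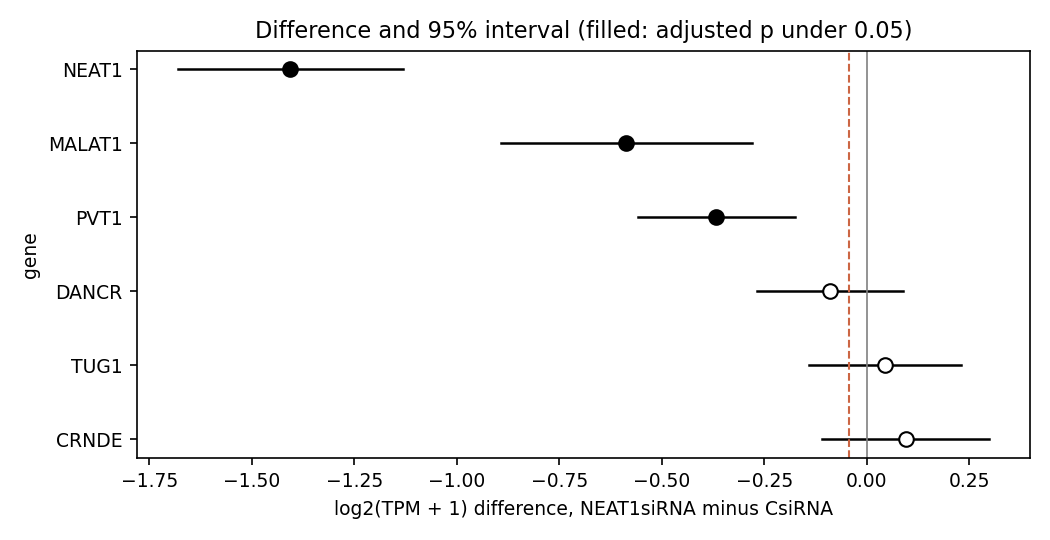
Difference in log2(TPM + 1), NEAT1siRNA minus CsiRNA, for the 6 members tested (points, filled where the adjusted p is under 0.05) with 95% intervals (lines). The dashed line is the median of all 10721 genes tested (-0.04), and NEAT1, MALAT1 and PVT1 lie below it with their intervals. The intervals use the limma SE, which for NEAT1 and MALAT1 is smaller than their own spread would give. The MALAT1 groups overlapped.

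The other 3 members had listed means under 1 TPM. KCNQ1OT1, the paternally expressed antisense RNA that silences the neighbouring imprinted genes in cis, was present at 0.408, 0.226 and 0.246 TPM with CsiRNA and at 0.306, 0.215 and 0.185 TPM with NEAT1siRNA. The groups overlapped. It was under the filter of a mean of 1 TPM, but its transcript is long (91667 bases in RefSeq) and these values rest on 367 to 803 reads per library. In an added fit of the recovered reads with limma-voom its difference was -0.25, with an adjusted p of 0.309.

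H19, a maternally expressed imprinted RNA that is high in the fetus and low in most adult tissues, had 1, 0 and 0 reads with CsiRNA and 3, 3 and 2 reads with NEAT1siRNA. These 9 reads in 6 libraries are at or under a floor of 3 counts per library, and no fold change is given. MEG3, the maternally expressed RNA of the imprinted region on chromosome 14, was listed at 0 TPM in all 6 libraries. RPP21, a subunit of RNase P, was listed at 0 as well although every cell uses it, so a listed 0 is not shown to be an absence. DLK1, the imprinted neighbour of MEG3, was also listed at 0.

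Of the 9 members, 6 were tested, and 3 of these were lower, 0 higher and 3 not called. Among all 10721 genes tested 14% were called, 8.98% lower and 4.99% higher. Among the 288 lncRNA genes tested the share was larger, with 25.3% called, 17% lower and 8.33% higher. Groups that did not overlap were seen for 2 of the 6 members, against 30.3% of all genes tested, and 19.3% of all genes did so with NEAT1siRNA lower. The median difference was -0.23 over the 6 members, -0.08 over the lncRNA genes and -0.04 over all genes. One of the 3 lower members was the siRNA target itself.

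The order of the levels was MALAT1, TUG1, DANCR, NEAT1, CRNDE, PVT1, KCNQ1OT1, H19 and MEG3 in the CsiRNA libraries. TUG1 and DANCR did not differ beyond their spread there and neither did NEAT1 and CRNDE. In the NEAT1siRNA libraries NEAT1 came after PVT1 and CRNDE, and the ranges of all neighbours down to KCNQ1OT1 were apart. No order was read between H19 and MEG3, which are at or under the floor. Among the lncRNA genes MALAT1 had the highest mean TPM in both groups. NEAT1 went from place 29 to place 89, PVT1 from 38 to 52, and CRNDE from 31 to 29. MALAT1 alone made up 73.0% to 84.4% of the summed TPM of the 9 members. That sum was 682, 417 and 600 TPM with CsiRNA and 475, 407 and 312 TPM with NEAT1siRNA, and the difference of -168 TPM had p = 0.2 in the exact two-sided permutation test.

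The ratio of NEAT1 to MALAT1 within a library does not depend on how the library is scaled. It was 0.0233, 0.0240 and 0.0213 in the CsiRNA replicates. It was 0.0113, 0.00949 and 0.0120 in the NEAT1siRNA replicates. Each NEAT1siRNA library was below each CsiRNA library. The mean was 0.0229 ± 0.00140 with CsiRNA and 0.0109 ± 0.00128 with NEAT1siRNA (SD, n = 3), which is 47.8% of the control ratio, and the exact two-sided permutation p was 0.1, the smallest possible.

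Against KCNQ1OT1, the ratio of NEAT1 was 32.9, 33.9 and 43.8 with CsiRNA and 14.2, 13.7 and 14.8 with NEAT1siRNA, a comparison added after the data were seen. The groups did not overlap, and 38.7% of the control ratio remained (exact permutation p = 0.1). The ratio of MALAT1 to KCNQ1OT1 was 1412, 1413 and 2059 with CsiRNA and 1261, 1448 and 1234 with NEAT1siRNA. These groups overlapped (exact permutation p = 0.3). Relative to TUG1, a comparison that was not planned either, MALAT1 stood at 64.0% of the control ratio (exact permutation p = 0.2) and NEAT1 at 30.8% (exact permutation p = 0.1).

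**Figure D3:**
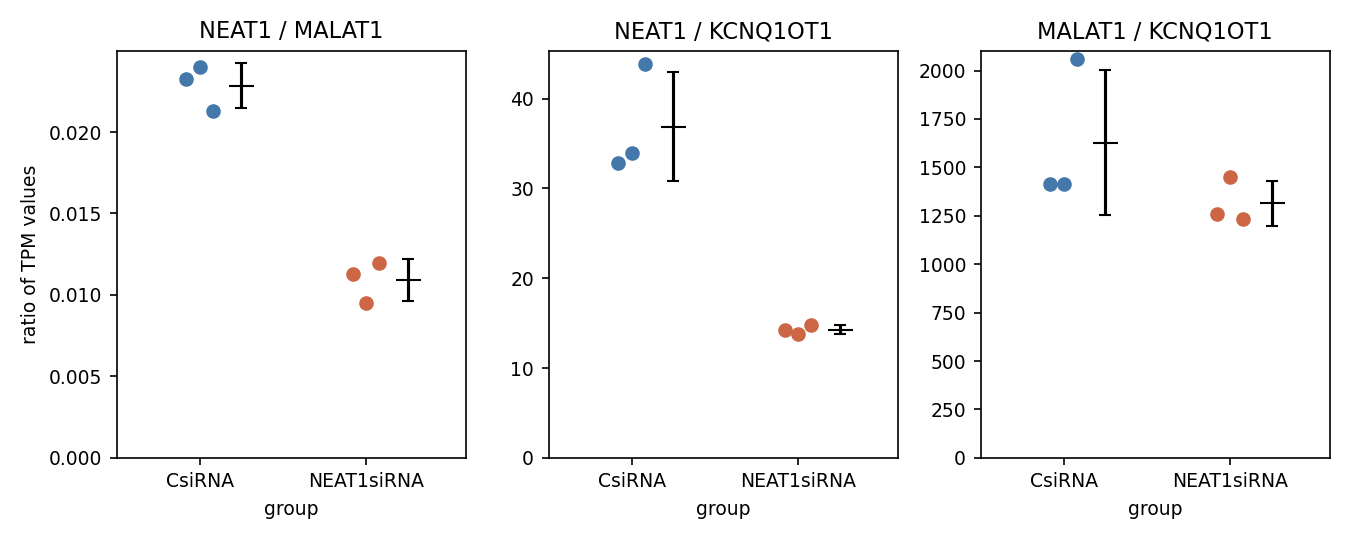
Ratios of TPM values between NEAT1, MALAT1 and KCNQ1OT1 within each library, with CsiRNA in blue and NEAT1siRNA in orange; points are libraries and the bars show the mean and SD. The NEAT1 ratios separate the groups, and the ratio of MALAT1 to KCNQ1OT1 does not.

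NEAT1, MALAT1 and KCNQ1OT1 varied between libraries of the same group more than the other members did, and they did so together. In CsiRNA replicate 1 they were above their group means by 0.33, 0.30 and 0.47 on the log2 TPM scale. In CsiRNA replicate 2 they were at -0.47, -0.55 and -0.37. NEAT1siRNA replicate 1 was the high library of its group, at 0.38, 0.32 and 0.38, and NEAT1siRNA replicate 3 the low one, at -0.30, -0.44 and -0.35. The remaining libraries were nearer the means, at 0.02, 0.12 and -0.25 in CsiRNA replicate 3 and at -0.18, 0.01 and -0.13 in NEAT1siRNA replicate 2. Of the other members, TUG1 stayed between -0.14 and 0.13, DANCR between -0.12 and 0.09 and PVT1 between -0.13 and 0.18, and CRNDE reached 0.26 in NEAT1siRNA replicate 2.

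The spread was also large against other genes. The within-group SD in log2(TPM + 1) was 0.33 for NEAT1 and 0.41 for MALAT1, and 0.569% and 0.327% of all genes tested had a larger one, where the median SD was 0.11. The limma fit draws the variance of each gene toward that of other genes of like level. Its SE for NEAT1 and MALAT1 (0.14 and 0.16) are therefore smaller than their own spread would give. With no filter the SE were 0.22 and 0.27, with adjusted p of 0.0310 and 0.297 by limma. Because the spread was shared, the SD of the log2 ratio of NEAT1 to MALAT1 was 0.09 with CsiRNA and 0.17 with NEAT1siRNA, below the SD of either gene alone (0.40 and 0.36 for NEAT1, 0.45 and 0.38 for MALAT1, in log2 TPM).

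GC content also moved with the libraries. Across 10106 genes the Spearman correlation of a library's deviation with GC content was -0.20, -0.34 and 0.47 in CsiRNA replicates 1, 2 and 3 and 0.67, -0.72 and 0.13 in NEAT1siRNA replicates 1, 2 and 3. The members had 33.3% to 48.1% GC apart from H19 (63.6%), and the median gene 46.9%. MALAT1 (42.0%) and NEAT1 (44.1%) were below that median, as were KCNQ1OT1 (43.7%), TUG1 (43.1%), DANCR (43.9%) and CRNDE (33.3%). With the GC and length trend of each library removed the difference was -1.18 for NEAT1, -0.51 for MALAT1 (adjusted p 0.0674 by limma) and -0.31 for PVT1. Nuclear retention, poly(A) capture and RNA quality were not measured here. Their part in the shared spread, and that of GC content, was not tested.

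**Figure D4:**
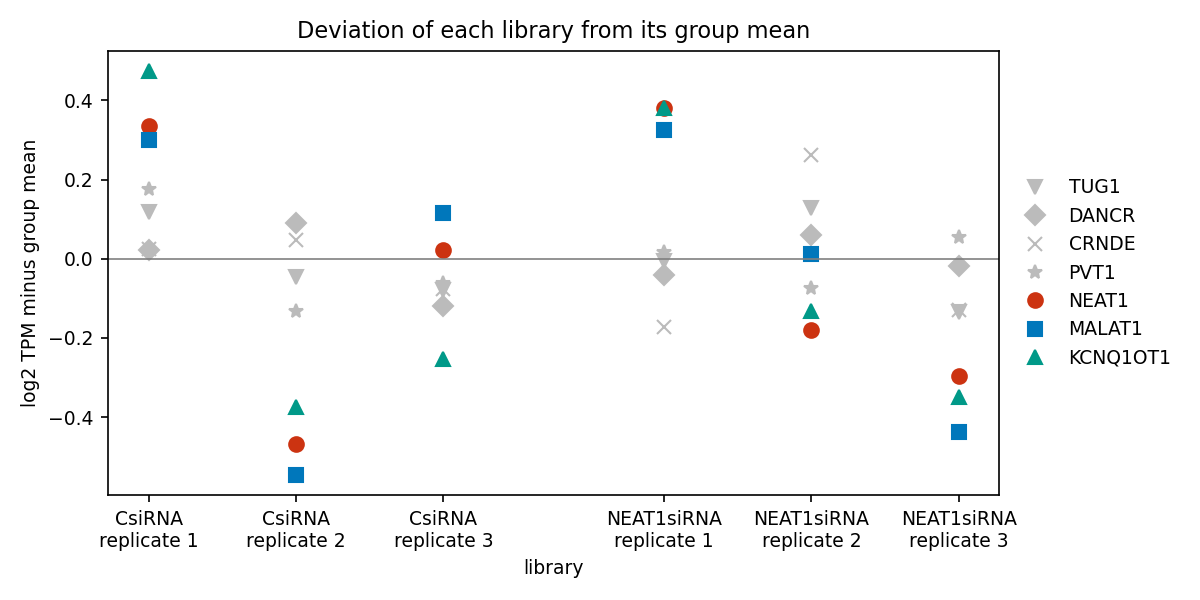
Deviation of log2 TPM from the group mean in each of the 6 libraries for 7 members. NEAT1 (red circles), MALAT1 (blue squares) and KCNQ1OT1 (green triangles) are high in replicate 1 of each group and low in CsiRNA replicate 2 and NEAT1siRNA replicate 3, and the other members (grey) stay closer to 0 in those 4 libraries.

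Over the 6 libraries, the genes whose log2(TPM + 1) pattern was most like that of NEAT1, among 7237 genes with a mean of at least 5 TPM, were FOSL2, TMEM214, TRAF2, RHOBTB2 and AURKB. Their Pearson r lay between 0.993 and 0.997. For MALAT1 they were CRCP, TCIRG1, RBM6, ZNF598 and COL6A2, with r between 0.988 and 0.997. NEAT1 itself came in place 563 in the MALAT1 list (r = 0.87), and PVT1 in place 324 in the NEAT1 list (r = 0.95). These points share the libraries and the difference between the groups, and the r values are a description over 6 libraries.

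The genes of proteins found in paraspeckles were tested in the same fit. Of 22 paraspeckle proteins, 3 were lower, 1 was higher and 18 were not called, with a median difference of -0.02 against -0.04 over all genes, of which 14% were called. The 3 were the core proteins SFPQ (116 ± 5.03 against 93.5 ± 8.25 TPM, difference -0.31) and PSPC1 (11.3 ± 0.990 against 8.72 ± 0.768 TPM, difference -0.34), and RBM14, which holds a prion-like domain, with a difference of -0.34. CIRBP, a cold-inducible RNA-binding protein, was higher, with a difference of 0.30. The third DBHS protein, NONO, was at 205 ± 2.07 and 204 ± 6.21 TPM (adjusted p 0.991 by limma). The 3 lower genes were each under their CsiRNA range in all 3 NEAT1siRNA libraries, as were 19.3% of all genes tested. All 4 calls were lost without CsiRNA replicate 1 and again without NEAT1siRNA replicate 3 (adjusted p 0.0547 to 0.160 by limma), and 2 were left without CsiRNA replicate 2.

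Of 20 proteins that act on the 3′ ends of NEAT1 and MALAT1 (the cleavage and polyadenylation factors, RNase P, RNase Z and METTL16), 18 were tested, 2 were lower and 0 higher (14% of all genes were called), with a median of -0.13. The 2 were subunits of RNase P, the enzyme that makes both 3′ ends. The other subunits tested (POP4, POP5, POP7, RPP25, RPP30 and RPP40) were not called, with differences of -0.26 (POP5) to -0.0073 (POP4). POP1 differed by -0.45 (adjusted p 0.0017 by limma) and was past the threshold in all 18 alternatives. RPP38 differed by -0.37 (adjusted p 0.0215 by limma) and lost the threshold without CsiRNA replicate 1 (0.146) and without NEAT1siRNA replicate 3 (0.152). The RNA subunit of RNase P, RPPH1, is among the short RNAs above. Of 15 nuclear speckle proteins 1 was lower, the scaffold SRRM2 (difference -0.35, adjusted p 0.0357 by limma), its groups overlapped, and its adjusted p reached 0.110 under another scaling.

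The genes around each member were counted next, beside the 14% of all genes tested that were called. No list was tested as a set. Of 15 genes listed around NEAT1 and MALAT1, 11 were tested, 1 was higher (FAM89B, 0.28) and 1 lower (CDC42EP2, -0.37). FAM89B lost the threshold when any library but NEAT1siRNA replicate 2 was left out (adjusted p 0.0506 to 0.205 by limma), and CDC42EP2 without CsiRNA replicate 1 (0.0781). FRMD8, which lies directly beside NEAT1, had an adjusted p of 0.982 by limma. Around PVT1, 4 of 6 genes were tested, with 1 lower and 2 higher (14% of all genes were called). MYC was at 38.6, 36.3 and 35.3 TPM with CsiRNA and at 27.2, 28.1 and 25.9 TPM with NEAT1siRNA. The groups did not overlap, and MYC fell by 0.43 on the log2(TPM + 1) scale (adjusted p 0.00197 by limma), in all 18 alternatives. FAM84B and FAM49B, also listed around PVT1, were higher by 0.51 and 0.40.

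Around TUG1, 1 of 5 genes tested was lower (SMTN, -0.31) and MORC2, its head-to-head neighbour, was not called (14% of all genes were called). Around CRNDE, 1 of 5 genes tested was higher, IRX5, the homeobox gene beside it (difference 0.37, adjusted p 0.0124 by limma), while CRNDE itself was not called. The count of genes called there depended on the setting. It was 4 with quantile normalization, median centring or voom and 5 with the GC and length trend removed. With no filter, or without NEAT1siRNA replicate 3, it was 0. Around DANCR none of 4 genes tested was called by limma, USP46 included (difference 0.04, adjusted p 0.831). Of 21 genes in the imprinted region of H19 and KCNQ1OT1, 7 were tested and 0 were called by limma, and 8 were listed at 0 in all libraries, among them KCNQ1, the sense partner of KCNQ1OT1. IGF2 and CDKN1C, imprinted neighbours of H19 and KCNQ1OT1, had means under 0.1 TPM. Around MEG3, 1 of 3 genes tested was higher (WARS, 0.28). None of 10 small RNAs made from within these genes, such as the microRNA MIR675 of H19 and the snoRNA SNORA26 of DANCR, had a row in the table.

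In all, 15 of the 90 list genes tested were called (16.7%, against 14% of all genes tested). Beside those named above, the call of SMTN was lost without CsiRNA replicate 1, CsiRNA replicate 3 or NEAT1siRNA replicate 3, that of IRX5 without CsiRNA replicate 3 or NEAT1siRNA replicate 3, that of SRRM2 without CsiRNA replicate 1 or NEAT1siRNA replicate 3, and that of WARS when any library but NEAT1siRNA replicate 2 was left out (adjusted p 0.0515 to 0.263 by limma). Without CsiRNA replicate 1 the count was 5, and without NEAT1siRNA replicate 3 it was also 5. These are the libraries in which the log2 levels of NEAT1 and MALAT1 were high in the control group and low in the silenced group. A link between those levels and the lost calls was not tested.

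**Figure D5:**
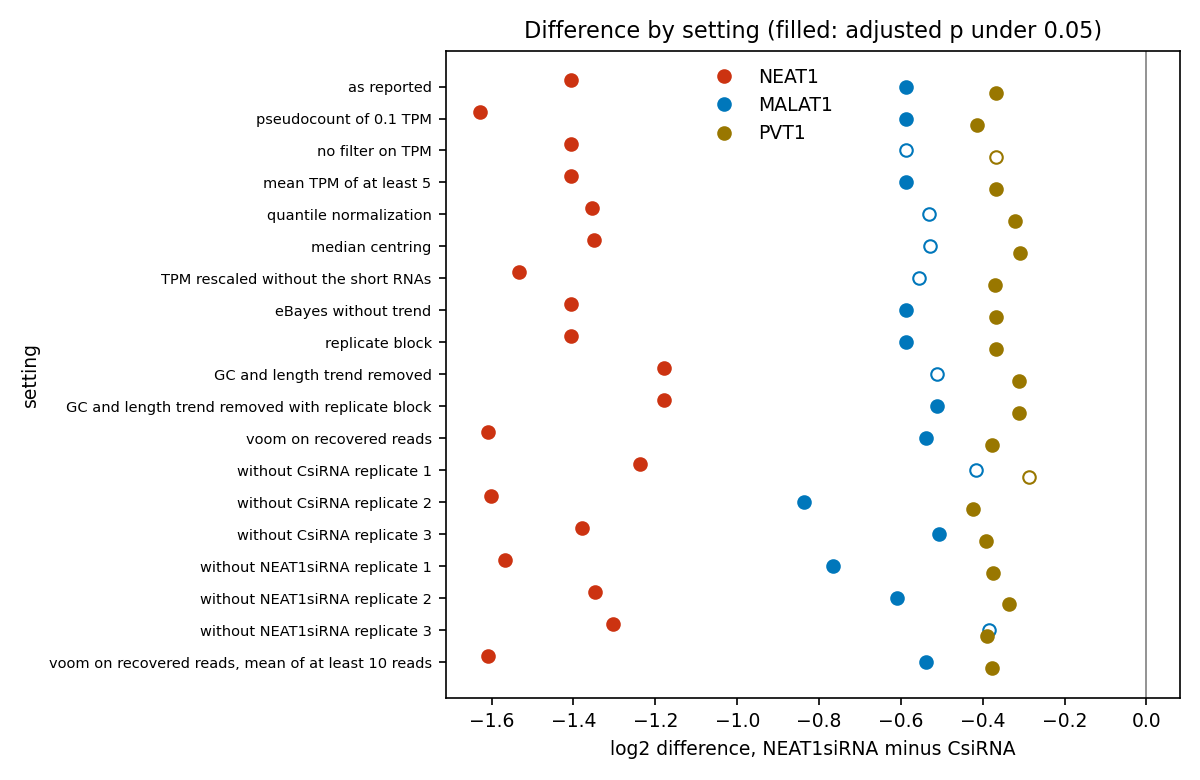
Difference on the log2 scale, NEAT1siRNA minus CsiRNA, for NEAT1 (red), MALAT1 (blue) and PVT1 (brown) under the reported setting and 18 alternatives, filled where the adjusted p is under 0.05. NEAT1 stays between -1.63 and -1.18 and filled throughout, MALAT1 is open in 7 of the alternatives and PVT1 in 2.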

How the data were processed

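RNA-seq was analysed for 3 CsiRNA and 3 NEAT1siRNA libraries. According to the labels and the methods of the study, STAR (alignment to GRCh38) and DESeq2 (comparison) were used by the authors on stranded mRNA reads. The deposited TPM values cover 25545 genes, scaled by the authors per transcript length and to the same sum in each library. The tool and gene lengths behind them, and the strand setting, are not given in the sources used here. A second deposited table gives, for 18531 genes, the mean over all libraries of normalized counts (a signal, gene counts divided by size factors). Its fold change and p-value columns hold the comparison of the authors and were not used. Size factors were inferred from the genes with the fewest reads, and each mean was split over the libraries in proportion to scaled TPM to recover reads. The reads of a library are thus reconstructed from its TPM and are not independent counts. With a tolerance of 0.05 read, 99.9% of values of up to 5 reads came out whole, 98.6% from 5 to 50, 69.8% from 50 to 500 and 12.6% above, so larger read numbers are rounded estimates.

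Genes with a mean of at least 1 TPM were tested with limma 3.58.1 (R 4.3.3; trended eBayes, two-sided) on log2(TPM + 1), and p-values were adjusted by Benjamini-Hochberg over all 10721 genes, with a threshold of 0.05. Differences are on that scale, which understates the change of low genes. Single values were compared by exact permutation of the 6 libraries. No count test was the main test, since the values are not counts. limma-voom was run on the recovered reads as an alternative. Its calls numbered 2465. The scripts were tested on simulated data. The alternatives were a pseudocount of 0.1, no filter or a mean of 5 TPM, other scalings, removal of GC and length trends, a replicate block, and leaving out each library. A voom fit with a mean of at least 10 reads and the ratios to KCNQ1OT1 were added after the data were seen. The ratios to TUG1 were not planned either.

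The members, gene lists and tests were chosen with earlier results of these data known. Named genes were the 9 members, list genes past the threshold, the nearest neighbours of the members whatever their change (some listed genes are not reported here), and the 5 genes most correlated with NEAT1 and with MALAT1. NONO, RPP21, the RNase P subunits not called, VIM, SPARC, ZEB1, KRT18 and ESR1 were named after their values were seen. Sequences and gene positions are from GRCh38, with RefSeq and GENCODE v44 annotation, whose version may differ from that of the authors.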

Additional observations from a re-analysis of the deposited data

How the results depend on the processing

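NEAT1 was lower and past the threshold in all 18 alternatives, with differences of -1.63 to -1.18 and adjusted p of up to 0.0310 (limma, no filter). MALAT1 lost the threshold with no filter (-0.59, adjusted p 0.297), quantile normalization (-0.53), median centring (-0.53), TPM rescaled without the short RNAs (-0.56) and the GC and length trend removed (-0.51). Leaving out each library gave -0.84 to -0.39 for MALAT1, -0.42 to -0.29 for PVT1, -0.021 to 0.11 for TUG1 and -0.031 to 0.17 for CRNDE, where TUG1 and CRNDE changed sign without NEAT1siRNA replicate 2 (-0.021 and -0.031). PVT1 lost the threshold with no filter (-0.37, adjusted p 0.0938) and without CsiRNA replicate 1. The no-filter fit tested 18531 genes. The cause of the changes between settings was not tested.

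The count of genes called was 1498, against 505 with no filter, 2465 by voom, 2764 by voom with at least 10 reads, 3309 with the GC and length trend removed and 3295 with that removal and the replicate block. It ranged from 759 to 2083 over the libraries left out, with 759 without CsiRNA replicate 1 and 838 without NEAT1siRNA replicate 3. The share of lower calls was 64.3%, against 45.2% with median centring, 50.6% with quantile normalization, 56.1% with rescaled TPM, 51.9% by voom and 51.0% with the trend removed. The 15 calls in the lists became 3 with no filter, 25 with the trend removed and 24 with that removal and the block, and 5 to 17 over the libraries left out. The summed TPM of the members differed by -168, by -110 without CsiRNA replicate 1 to -243 without CsiRNA replicate 2, and by -469 on rescaled TPM, where the scale itself is larger (MALAT1 1371 against 923 TPM).

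The sample titles do not say whether the replicate numbers pair the libraries. Same-numbered libraries correlated at -0.03, 0.25 and -0.11 in their deviations from the group means. The value of 0.25 was the highest for CsiRNA replicate 2, and CsiRNA replicate 3 correlated best with NEAT1siRNA replicate 1 (0.40). These values do not show whether the libraries were paired. With the replicate block the count of calls was 1640, and NEAT1, MALAT1 and PVT1 had adjusted p of 1.68e-06, 0.0106 and 0.0136 (limma). Depth limits H19, with 9 reads in all.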
